A study of Mus musculus with 6 samples.

Results

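The transcripts described here belong to the thrombomodulin and protein C pathway and to the family of thrombin receptors, measured in the lungs of endotoxaemic mice that received recombinant human thrombomodulin (rhTM) or saline. The 9 genes were chosen by name and not by their values, though earlier results of these data were known: Thbd, Procr, Proc, Pros1, Cpb2, F2r, F2rl1, F2rl2 and F2rl3. They are 9 of the 22815 genes with a probe that could be matched to a gene, and 8 of them were among the 16369 genes bright enough to test. All mice were male C57BL6 animals, 10 weeks of age, which were starved for 16 h and then given LPS, the bacterial endotoxin, at 20 mg/kg by the intraperitoneal route. In the saline group, 3 mice received saline 3 and 24 h after LPS, and in the rhTM group 3 mice received rhTM at the same times. Lungs were taken 30 h after LPS and each lung was hybridised to 1 array, so that replicates were separate mice. Every mouse had received LPS, and no comparison with healthy lung was made here.

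Thrombomodulin is a receptor on the surface of endothelial cells that binds thrombin and turns it from a clotting enzyme into an activator of protein C. The endothelial protein C receptor holds protein C in place for this step, and activated protein C, with protein S as its cofactor, then destroys the activated forms of coagulation factors V and VIII. Thrombin that is not captured by thrombomodulin cuts protease-activated receptors (PARs), which signal to endothelial cells, smooth muscle and platelets. The injected rhTM is a protein, so the arrays measured the animals' own Thbd mRNA. The comparison between the groups asks whether transcripts of the pathway to which the drug belongs differed between treated and control lungs.

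Levels below are log2 values of the processed signal relative to the 75th percentile of the same array, so that a value of 0 means a signal equal to that percentile, and differences are rhTM minus saline on the log2 scale. Levels of different genes are not set against each other, because each comes from its own probe. Of the 56605 probes on an array, between 36001 and 40499 were well above background, and the count was highest on the array of saline replicate 1, the only one whose spike-in slope (0.826, against 1.07 to 1.09 on the others) was outside the range the scanner software accepts. The arrays came from 2 slides, of which slide 2 held saline replicate 1 and rhTM replicate 3. A table that the authors also deposited holds the signals of the same 6 arrays, but there saline replicate 1 carries the signals that the scanner output gives to rhTM replicate 2, and the reverse. The labels and the methods do not say which holds. The assignment of the scanner output was followed, and values under the exchanged assignment of these 2 arrays are given beside those of the genes described here and of the pathway lists. Of the markers listed for the cells of the labelled tissue, all 6 alveolar epithelium genes and all 10 endothelial genes were well above background on every array.

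None of the 8 tested genes passed the test, in a comparison in which none of all the genes tested did. With limma and an adjusted p under 0.05, 0 of 16369 genes (0%) were called from the scanner output and 0 of 16320 genes (0%) under the exchanged assignment. The exchanged assignment places rhTM replicates 2 and 3 on slide 2 and all saline arrays on slide 1, and with a term for the slide it called 432 genes (2.65%, with 187 higher and 245 lower), of which 0 were among the 8 described here. With that term, the difference rests on rhTM replicate 1 alone against the 3 saline arrays, because slide 2 then holds no saline array. At an unadjusted p under 0.05, 306 genes (1.87%) were found from the scanner output and 2279 (14%) under the exchanged assignment, and 0 of the 8 genes described here in either case. The methods' test gave 340 genes unadjusted and 0 after adjustment, and Pros1 was the only one of the 8 among the 340. An exact permutation test over these arrays cannot go below p = 0.1, and the number of arrays limits the precision of every value. In whole lung, a lower share of the cells that make a transcript and less of it per cell cannot be told apart.

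**Figure D1:**
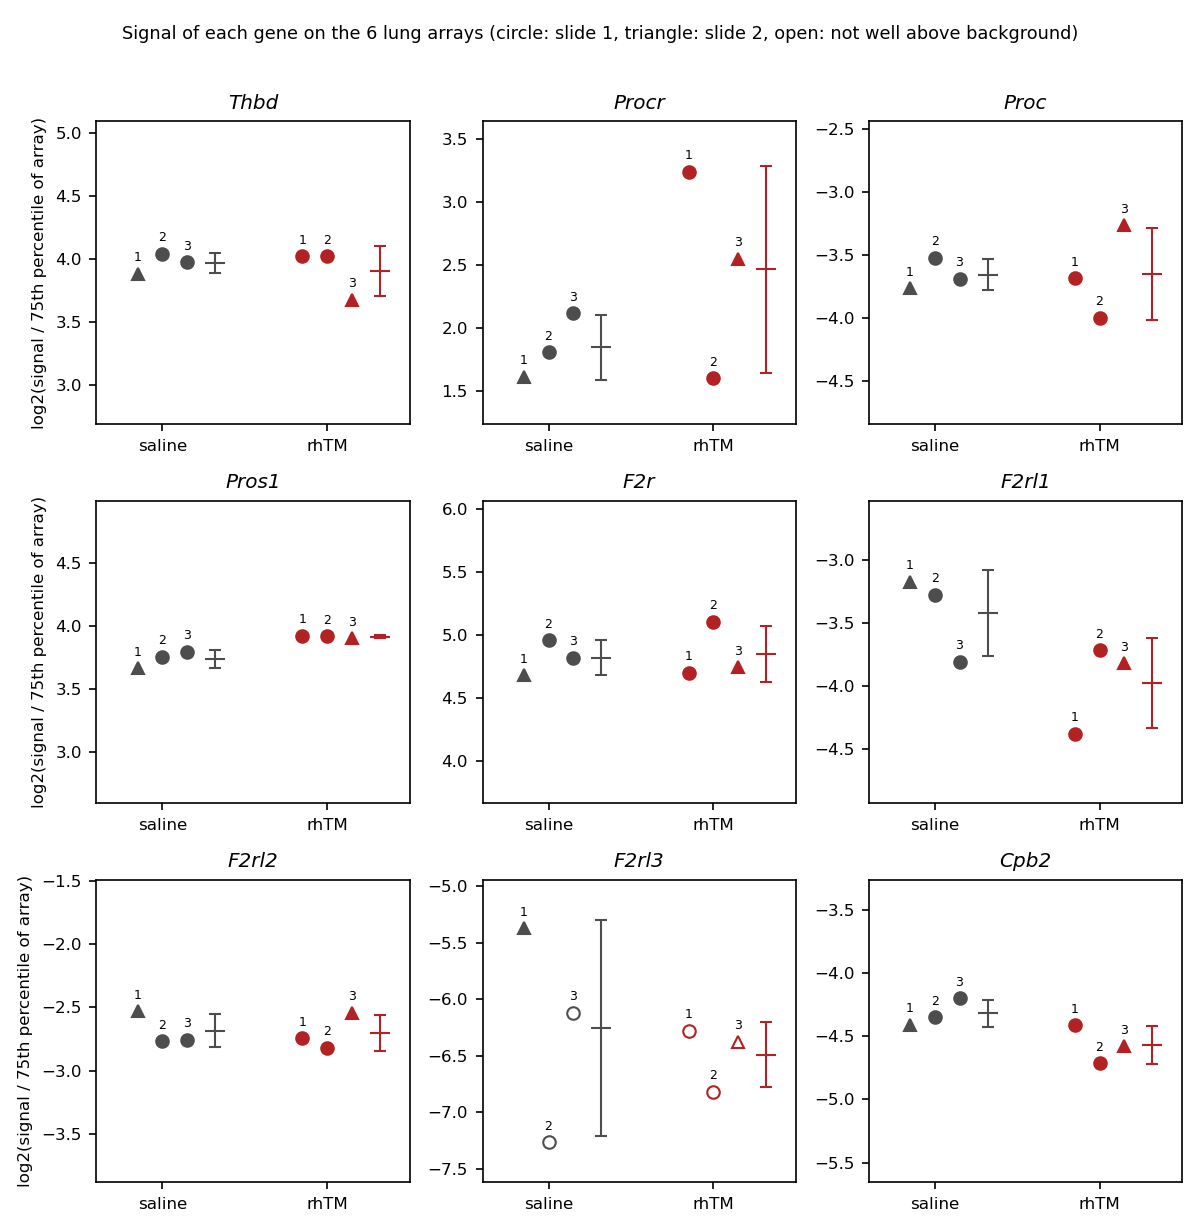
Signal of each of the 9 genes on each array (vertical axis: log2 of signal over the array's 75th percentile; every panel spans its own levels), with saline in grey and rhTM in red, circles for slide 1, triangles for slide 2 and open symbols for a signal not well above background; the bar at the side is the mean with the SD of 3 arrays. Procr was scattered between 1.60 and 3.24 within the rhTM group, the 3 rhTM values of Pros1 lay within 3.91 to 3.93, and F2rl3 was well above background on 1 array.

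Thbd, which encodes thrombomodulin, had nearly the same level in both groups. Its level was 3.88, 4.04 and 3.97 on the saline arrays and 4.02, 4.02 and 3.67 on the rhTM arrays. The groups overlapped, and the lowest value was that of rhTM replicate 3, followed by saline replicate 1. The difference was -0.060 (limma SE 0.14, 95% interval -0.39 to 0.27, adjusted p = 1.00, exact permutation p = 0.8, two-sided, n = 3 per group). Both low arrays were those of slide 2, on which Thbd averaged 0.23 lower than on slide 1 (a difference of -0.23), with no overlap between slides. Within slide 1 the groups differed by 0.014 and within slide 2, with 1 array each, by -0.21. The exchanged assignment gave a difference of -0.15 (95% interval -0.43 to 0.13, limma adjusted p = 0.566), and without either exchanged array it was -0.16.

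Procr, which encodes the endothelial protein C receptor, had the largest difference in means among the 8 tested genes and also the widest scatter. Its level was 1.61, 1.80 and 2.11 on the saline arrays and 3.24, 1.60 and 2.55 on the rhTM arrays. Replicates 1 and 3 of rhTM lay above every saline array, whereas rhTM replicate 2 had the lowest value of all 6. The difference was 0.62, a fold change of 1.54 (limma SE 0.40, 95% interval -0.32 to 1.56, adjusted p = 1.00, exact permutation p = 0.4, two-sided). On the linear scale the rhTM mean was 6.10 ± 3.21 times the 75th percentile and the saline mean 3.63 ± 0.650 times (SD, n = 3 each).

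The scatter of Procr was large compared with other genes as well as between groups. Its SD over the 6 arrays was 0.64, at percentile 95.6 of the 16369 tested genes, whose median SD was 0.20. A single array moved the difference a good deal, from 0.23 without rhTM replicate 1 to 1.05 without rhTM replicate 2, which was one of the exchanged arrays. Without rhTM replicate 2 the limma p was 0.00662 before and 0.528 after adjustment over all genes, and 8.54% of all genes were then at an unadjusted p under 0.05. The direction was the same within both slides, at 0.46 on slide 1 and 0.94 on slide 2. Under the exchanged assignment the difference was 0.62 (95% interval -0.33 to 1.58, limma adjusted p = 0.493), with a term for the slide it was 1.40 (adjusted p = 0.0961), resting on rhTM replicate 1, the array with the highest Procr level, and without both exchanged arrays it was 0.93 (adjusted p = 0.648). The 2 exchanged arrays had nearly equal Procr levels, 1.61 and 1.60, so the exchange could hardly move its difference. Procr had a higher mean after rhTM under either assignment and did not pass the test under either.

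Markers of the endothelium, which carries thrombomodulin and the protein C receptor, had levels that overlapped between the groups in the scanner output, with 1 exception among the capillary markers. All 10 general markers were well above background on each array, and their summed signal ranged from 370 to 406 times the 75th percentile in saline lungs and from 350 to 392 times in rhTM lungs. Of the 10, 4 had a higher mean in the rhTM group, and their median difference was -0.10 (-0.34 under the exchanged assignment, where 3 of 10 were lower with no overlap, against 12% of all genes). The 5 markers of capillary endothelium summed to 38.0 to 51.1 times in saline and 42.1 to 48.4 times in rhTM lungs, with a median difference of 0.12 (0.041 under the exchanged assignment). The exception was the capillary marker Ednrb, an endothelin receptor, which was higher on every rhTM array than on any saline array (difference 0.40, limma adjusted p = 1.00), as were 2.95% of all genes, and which overlapped under the exchanged assignment (0.25). Expressed relative to the mean of the endothelial markers in place of the 75th percentile, Thbd differed by 0.059 and Procr by 0.74, against 0.12 for the median of all genes. The part of endothelial content in these values was not tested further.

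Proc encodes protein C, a zymogen that the liver secretes into plasma. Its level was -3.76, -3.52 and -3.69 on the saline arrays and -3.68, -3.99 and -3.26 on the rhTM arrays, from processed signals between 50.7 and 71.6. All 6 were above background, and the highest and the lowest both belonged to the rhTM group. The difference was 0.0087 (limma SE 0.20, 95% interval -0.47 to 0.49, adjusted p = 1.00, exact permutation p = 0.9, two-sided). It was -0.24 within slide 1 and 0.50 within slide 2, 0.16 under the exchanged assignment and 0.13 without both exchanged arrays.

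Pros1 encodes protein S, which is the cofactor of activated protein C and also a ligand of the TAM receptor tyrosine kinases Tyro3, Axl and Mertk. Its brighter probe gave 3.67, 3.76 and 3.80 on the saline arrays and 3.93, 3.92 and 3.91 on the rhTM arrays. Each rhTM array lay above each saline array, and the rhTM values were closer to each other than the saline values were. The difference was 0.18 (limma SE 0.11, 95% interval -0.079 to 0.43, adjusted p = 1.00, exact permutation p = 0.1, two-sided, the lowest value possible). In linear units, the means were 15.1 ± 0.105 times the 75th percentile in rhTM and 13.4 ± 0.622 times in saline lungs (SD, n = 3 each). The direction held within slide 1 (0.15) and slide 2 (0.24).

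Neither the second probe of Pros1 nor the exchanged assignment separated the groups. The second probe gave -0.14, 0.26 and 0.12 on the saline arrays and 0.14, 0.20 and 0.0088 on the rhTM arrays, which overlapped and differed by 0.041. With the exchanged assignment the brighter probe differed by 0.0083 (95% interval -0.27 to 0.28, limma adjusted p = 0.980) with overlap, and the second by -0.19. Without both exchanged arrays the brighter probe differed by 0.14. The methods' test gave Pros1 a p of 0.0110 before and of 1.00 after adjustment over all genes, beside the exact permutation p given above.

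Cpb2 encodes the fibrinolysis inhibitor TAFI, a carboxypeptidase zymogen made in the liver that is activated by thrombin bound to thrombomodulin. Its level was -4.41, -4.35 and -4.20 on the saline arrays and -4.41, -4.71 and -4.58 on the rhTM arrays. No rhTM array reached a saline array, but the nearest pair, replicate 1 of each group, had equal values at 2 decimals. The difference was -0.25 (limma SE 0.13, 95% interval -0.56 to 0.064, adjusted p = 1.00, exact permutation p = 0.1, two-sided). It was -0.29 within slide 1 and -0.17 within slide 2. It was -0.046 under the exchanged assignment, with overlap, and -0.040 after another background correction (normexp).

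Other genes of hepatocytes are given beside these liver proteins. Of 6 hepatocyte markers, Ahsg was well above background on all 6 arrays and was the 1 tested, with a difference of 0.43 (limma adjusted p = 1.00) and overlapping groups. Alb and Apob were well above background on 2 arrays each, Fgb and Ttr on 1 each, and Apoa1 on 0. The saline arrays had 2 to 4 of the 6 above background and the rhTM arrays 1 each. Saline replicate 1, which had 3 and the deviating spike-in slope, and rhTM replicate 2 are the arrays in doubt. With these exchanged, the counts of the groups overlap. The summed signal of the list was between 0.344 and 0.662 times the 75th percentile in saline lungs and between 0.285 and 0.778 times in rhTM lungs, and its part in the levels of Proc and Cpb2 was not tested.

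F2r encodes PAR1, the main thrombin receptor of endothelial cells, which activated protein C bound to its receptor can also cut. Its level was 4.68, 4.96 and 4.82 on the saline arrays and 4.70, 5.11 and 4.74 on the rhTM arrays. The groups overlapped, with the highest value on rhTM replicate 2 and the lowest on saline replicate 1. The difference was 0.030 (limma SE 0.16, 95% interval -0.34 to 0.40, adjusted p = 1.00, exact permutation p = 0.8, two-sided). These are the 2 arrays whose assignment was in doubt, and F2r changed sign with it. When the arrays were exchanged it differed by -0.25 (95% interval -0.51 to 0.0086, limma adjusted p = 0.367, exact permutation p = 0.1, two-sided), with every rhTM array below every saline array. Without both arrays the difference was -0.17, and no direction can be given for F2r.

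F2rl1 encodes PAR2, a receptor for trypsin-like proteases and for the complex of tissue factor and factor VIIa rather than for thrombin. Its level was -3.17, -3.28 and -3.81 on the saline arrays and -4.38, -3.72 and -3.82 on the rhTM arrays. Replicates 1 and 2 of saline had the highest values, while saline replicate 3 fell among the rhTM arrays. The difference was -0.55, a fold change of 0.681 (limma SE 0.24, 95% interval -1.13 to 0.022, unadjusted p = 0.0571, adjusted p = 1.00, exact permutation p = 0.2, two-sided). It lay between -0.75 without saline replicate 3 and -0.35 without rhTM replicate 1, and was -0.51 within slide 1, -0.65 within slide 2 and -0.56 without both exchanged arrays. Its processed signals were low, 35.4 to 84.6, and the difference was -0.19 both after normexp background correction and under the exchanged assignment (limma adjusted p = 0.792 for the latter). With a term for the slide, the exchanged assignment gave -0.78 (adjusted p = 0.177), resting on rhTM replicate 1, the array with the lowest F2rl1 level.

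F2rl2 encodes PAR3, which on mouse platelets helps thrombin to cut PAR4. Its level was -2.53, -2.77 and -2.76 on the saline arrays and -2.74, -2.82 and -2.54 on the rhTM arrays. The groups overlapped, and the 2 highest values were those of slide 2, which averaged 0.23 above slide 1 without overlap. The difference was -0.017 (limma SE 0.13, 95% interval -0.34 to 0.30, adjusted p = 1.00, exact permutation p = 0.9, two-sided). Before scaling, the processed signal of F2rl2 was between 110 and 121 on all 6 arrays, while the 75th percentile was 675 and 688 on the arrays of slide 2 and 737 to 850 on those of slide 1. The exchanged assignment puts rhTM replicates 2 and 3 on slide 2, and there F2rl2 differed by 0.17 (95% interval -0.073 to 0.42, limma adjusted p = 0.462, exact permutation p = 0.1, two-sided), with every rhTM array above every saline array. Without both exchanged arrays the difference was 0.12. The part of the scaling in this difference was not tested.

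F2rl3 encodes PAR4, the thrombin receptor of mouse platelets. Its level was -5.37, -7.27 and -6.12 on the saline arrays and -6.28, -6.82 and -6.38 on the rhTM arrays. It was well above background only on saline replicate 1, the array with the deviating spike-in slope, and on none of the rhTM arrays. That array is one of the 2 in doubt, and under the exchanged assignment the only detected signal belongs to the rhTM group. The difference in means then turned from negative to positive. With a signal on 1 array only, F2rl3 was not tested, and no size of a difference is given. Markers of platelets and megakaryocytes were measurable, with all 8 well above background on each array, a summed signal of 10.9 to 15.4 times the 75th percentile in saline and 14.2 to 28.3 times in rhTM lungs, of which 28.3 was that of rhTM replicate 1 and the other two rhTM arrays were at 14.2, within the saline range, and a median difference of -0.12.

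**Figure D2:**
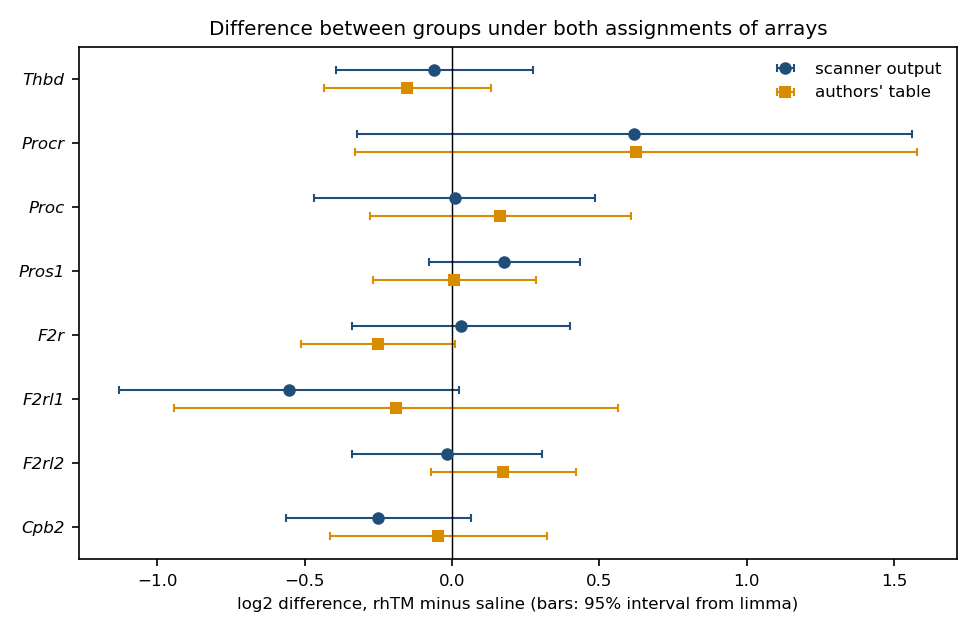
Difference between the group means of the 8 tested genes (horizontal axis: log2, rhTM minus saline), with 95% intervals from limma, from the scanner output (circles) and from the authors' table, which exchanges 2 arrays (squares). Every interval includes 0. Procr lies at 0.62 under both, and its levels on the 2 exchanged arrays are nearly equal. F2r moves from 0.030 to -0.25 and F2rl2 from -0.017 to 0.17.

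The genes whose groups did not overlap were different ones under the 2 assignments. From the scanner output 1 of 8 was higher in all rhTM arrays (Pros1), where 2.95% of all tested genes were, and 1 of 8 was lower (Cpb2), against 2.57% of all genes. Under the exchanged assignment 1 of 8 was higher (F2rl2), against 9.68%, and 1 of 8 was lower (F2r), against 12%. The 2 pairs shared 0 genes. Between slides, 32.7% of all tested genes had the 2 arrays of slide 2 on one side of the 4 arrays of slide 1, and so did 2 of the 8, Thbd and F2rl2. F2r, F2rl1 and F2rl2 lie side by side in the mouse genome with 0 other protein-coding genes between them, and their differences of 0.030, -0.55 and -0.017 had no common direction.

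Thbd, Procr and F2r were followed further by asking which other transcripts had the most similar pattern over the 6 arrays, after each gene was centred on its own mean. Likeness was the root mean square (RMS) difference in log2 units. For Thbd, the nearest of all tested genes were Clns1a (0.018), Amer1 (0.021) and Stxbp3 (0.032), against a median of 0.21 over all genes. Each had its lowest value on rhTM replicate 3 and its next lowest on saline replicate 1, the arrays of slide 2, as Thbd did. For F2r, Myef2 (0.036), Wsb1 (0.039) and Erc1 (0.039) were nearest (median 0.23), with their highest value on rhTM replicate 2.

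For Procr, the nearest genes were Mamstr (0.083), Orm1 (0.10), which encodes the acute-phase protein orosomucoid, and C530044C16Rik (0.11), against a median of 0.61. Orm1 was at 3.22, 3.42 and 3.60 on the saline arrays and at 4.69, 3.29 and 3.95 on the rhTM arrays. As with Procr, rhTM replicates 1 and 3 were above all saline arrays and rhTM replicate 2 was not. Orm1 differed by 0.57, Mamstr by 0.48 and C530044C16Rik by 0.71, with limma adjusted p = 1.00 for each. All of these patterns share the same 6 arrays and 2 slides. The neighbours were picked for likeness over these arrays, so their shared order of arrays largely follows from the choice. The patterns are given as a description.

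**Figure D3:**
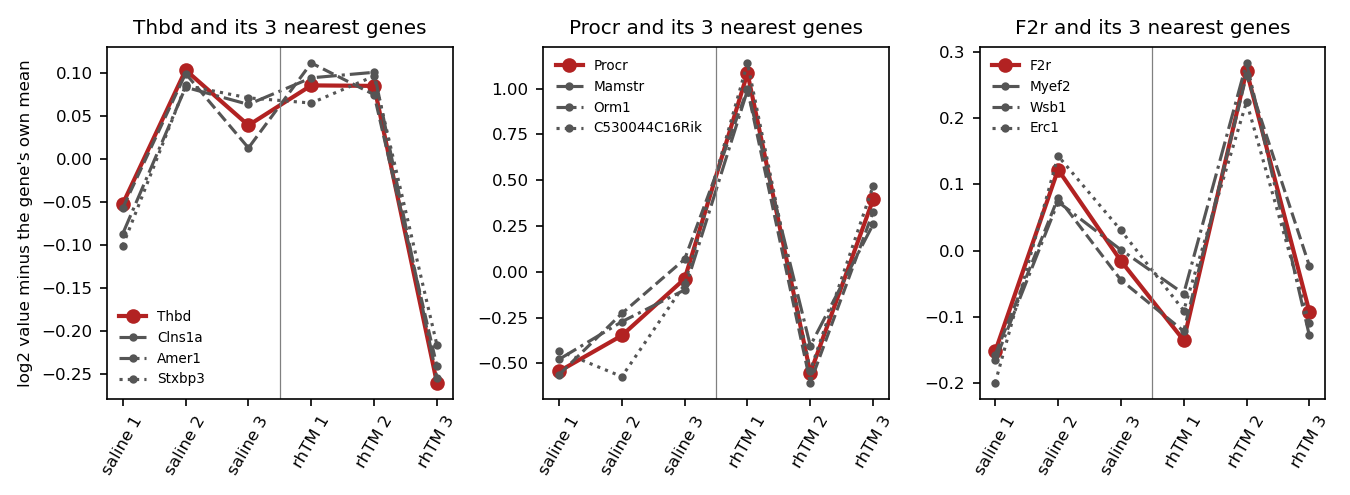
Values of Thbd, Procr and F2r (red) and of the 3 tested genes nearest to each in pattern (grey) on the 6 arrays (vertical axis: log2 value minus the gene's own mean; the vertical line divides saline from rhTM, and lines only join the points of a gene). Thbd and its neighbours are lowest on rhTM replicate 3, Procr and its neighbours highest on rhTM replicate 1, and F2r and its neighbours highest on rhTM replicate 2.

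Around these genes, 61 further genes of the pathway were listed by role, of which 49 were among the genes tested. From the scanner output 0 of the 49 were called, 23 had a higher mean in rhTM lungs, 0 had groups that did not overlap in either direction, and the median difference was -0.020, against 0.0026 over all tested genes. Under the exchanged assignment 0 of 49 were called, 2 were higher without overlap, against 9.68% of all genes, 6 were lower, against 12%, and the median was -0.032. With a term for the slide, that assignment called 2 of the 49, F3 and Serpind1, and 2.65% of all genes. At an unadjusted p under 0.05, limma gave 1 of the 49 genes from the scanner output, where it gave 1.87% of all genes, and 8 under the exchanged assignment, where it gave 14%. The one gene was Rgs2, which encodes an inhibitor of Gq signalling (difference 0.35, or 0.21 when exchanged, limma adjusted p = 1.00) and is named after its value was seen.

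Of 17 genes for thrombin formation and its inhibitors, 10 were tested and 6 had a higher mean in rhTM lungs (median 0.047, and 0.013 under the exchanged assignment). F3, which encodes tissue factor, the starter of coagulation, had the highest difference at 0.49 (0.37 when exchanged). Its level was 4.46 on rhTM replicate 1 and between 2.98 and 3.26 on the other 5 arrays, so that 1 mouse lay apart from all others. Serpind1, which encodes heparin cofactor II, had the lowest at -0.48 (-0.16 when exchanged), with -2.86 on the same array and between -1.84 and -1.21 elsewhere. The exchanged assignment with a term for the slide sets rhTM replicate 1 alone against saline, and there F3 differed by 1.29 (limma adjusted p = 0.0322) and Serpind1 by -1.15 (adjusted p = 0.0436). F2, which encodes prothrombin, differed by -0.19 and turned to 0.20 when exchanged, and Tfpi, the tissue factor pathway inhibitor, differed by 0.028 (0.058 when exchanged). Serpinc1, which encodes antithrombin, was not among the genes tested.

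Among the other ligand and the receptors of the protein S system, all 4 genes were tested, with a median of 0.0080 that turned to -0.20 under the exchanged assignment. The ligand Gas6 differed by 0.065 and turned to -0.19 when exchanged. Of the receptors, Axl differed by -0.049, and by -0.21 when exchanged, where it was lower without overlap, as were 12% of all genes. Mertk differed by -0.27 (-0.36 when exchanged) and Tyro3 by 0.46 (0.88). Tyro3 was at 2.05, 0.33 and 1.42 on the rhTM arrays and at 0.96, 0.49 and 0.97 on the saline arrays, with the highest value on rhTM replicate 1 and the lowest on rhTM replicate 2. The limma adjusted p was 1.00 for each by the scanner output.

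All 18 signalling partners of PARs and of the protein C receptor were tested, and 8 had a higher mean in rhTM lungs (median -0.027, and -0.052 under the exchanged assignment). S1pr1 encodes a sphingosine 1-phosphate receptor through which activated protein C tightens endothelial barriers. Its level was 3.93, 3.67 and 3.71 on the saline arrays and 4.41, 3.59 and 4.15 on the rhTM arrays, with a difference of 0.28. Like Procr, it was highest on rhTM replicates 1 and 3 and lowest on rhTM replicate 2. When the assignment was exchanged, S1pr1 differed by 0.50 with no overlap (limma adjusted p = 0.314), and was the 1 gene of 18 higher in this way, against 9.68% of all genes. In the same case 3 of 18 were lower with no overlap, against 12% of all genes: Arhgef1 (-0.14), Arhgef12 (-0.34) and Grk5 (-0.32), a kinase of G protein-coupled receptors. These 3 are named after their values were seen. Sphk1, which makes sphingosine 1-phosphate, had the highest difference of the list at 0.39 (0.44 when exchanged), with 6.42 on rhTM replicate 1 and 5.05 to 5.57 elsewhere. Cav1, the scaffold of endothelial caveolae, had the lowest at -0.67 (-0.51 when exchanged), with -0.60 on rhTM replicate 1 and 0.24 to 0.91 elsewhere.

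Of 6 genes that set the amount of thrombomodulin on the cell, 5 were tested and 0 called, and their differences lay between -0.044 for Adam17 and 0.13 for Klf2, with a median of 0.032 (-0.021 under the exchanged assignment). Klf2 and Klf4 encode endothelial transcription factors that raise Thbd transcription, and Klf4 differed by -0.018 (0.13 when exchanged). Klf2 was at 5.44, 5.28 and 5.19 on the saline arrays and at 5.45, 5.37 and 5.50 on the rhTM arrays, which overlapped. With both arrays exchanged, Klf2 was higher with no overlap between groups (0.18), against 9.68% of all genes. Adam17, a sheddase, was then lower with no overlap (-0.29), against 12% of all genes.

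Of 12 proteases that cut PARs or thrombomodulin, 9 were tested and 4 had a higher mean in rhTM lungs (median -0.047), from -0.43 for Plau, the urokinase-type plasminogen activator, to 0.25 for St14, which encodes matriptase. At either end 1 array stood apart: Plau was at -0.88 on saline replicate 1 and between -2.37 and -1.61 elsewhere, and St14 was at 1.64 on rhTM replicate 1 and between 0.76 and 1.05 elsewhere. Under the exchanged assignment the median was 0.035, Plau turned to 0.23 and St14 differed by 0.20. There Plg, which encodes plasminogen, was lower with no overlap (-0.57), as were 12% of all genes. All 3 tested genes of the platelet complex that binds thrombin had a lower mean in rhTM lungs (median -0.26), from -0.65 for Gp1ba to -0.14 for Gp1bb. Gp1ba was at -6.00 on rhTM replicate 3 and between -4.83 and -4.05 elsewhere, and Gp9 at -2.28 on that array and between -1.50 and -0.67 elsewhere. Under the exchanged assignment the median of these 3 was -0.41, with Gp1ba at -0.68 and Gp1bb at 0.091. None of these genes was called.

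**Figure D4:**
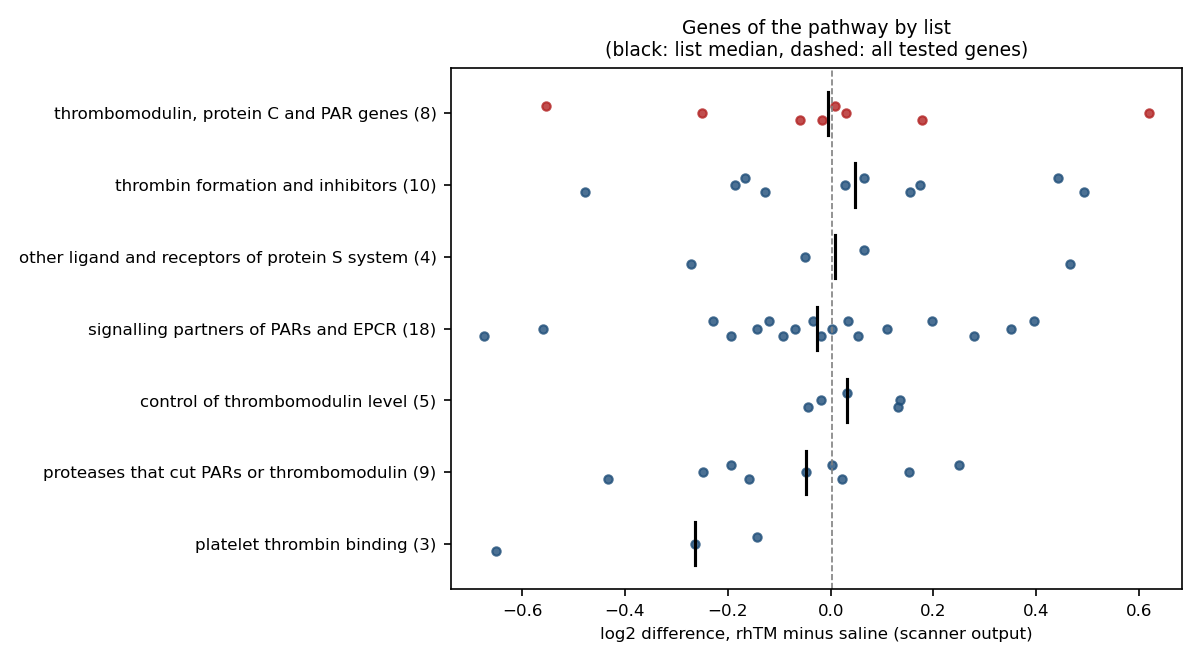
Difference between the group means (horizontal axis: log2, rhTM minus saline, scanner output) of the 8 tested genes described above (red) and of the 49 tested genes of the 6 lists (blue), 1 point per gene with the number of genes in brackets; black bars are list medians and the dashed line is the median of all tested genes, 0.0026. The list medians lie between -0.26 for platelet thrombin binding and 0.047 for thrombin formation and inhibitors.

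Of 19 alternative analyses, 13 gave a gene with 1 probe another difference than the one reported, and the others, such as blocks, filters and another test, left it as it was. In all of the 13, or 14 for Pros1, the direction of 3 genes was the same. Procr lay between 0.23 and 1.40, Pros1 between 0.0083 and 0.30 and F2rl1 between -0.78 and -0.19. The second probe of Pros1 was not followed on its own, and it was at -0.19 under the exchanged assignment. The difference of Cpb2 was below 0 in all but 1 of the 13. F2r changed sign in 6, F2rl2 in 7, Proc in 4 and Thbd in 3, of which 1 each for F2rl2 and Thbd was the scaling on endothelial markers that moved the median of all genes. In none was any of the 8 genes called. The lowest adjusted p was that of Procr under the exchanged assignment with a term for the slide, where the difference was 1.40 (limma adjusted p = 0.0961).

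**Figure D5:**
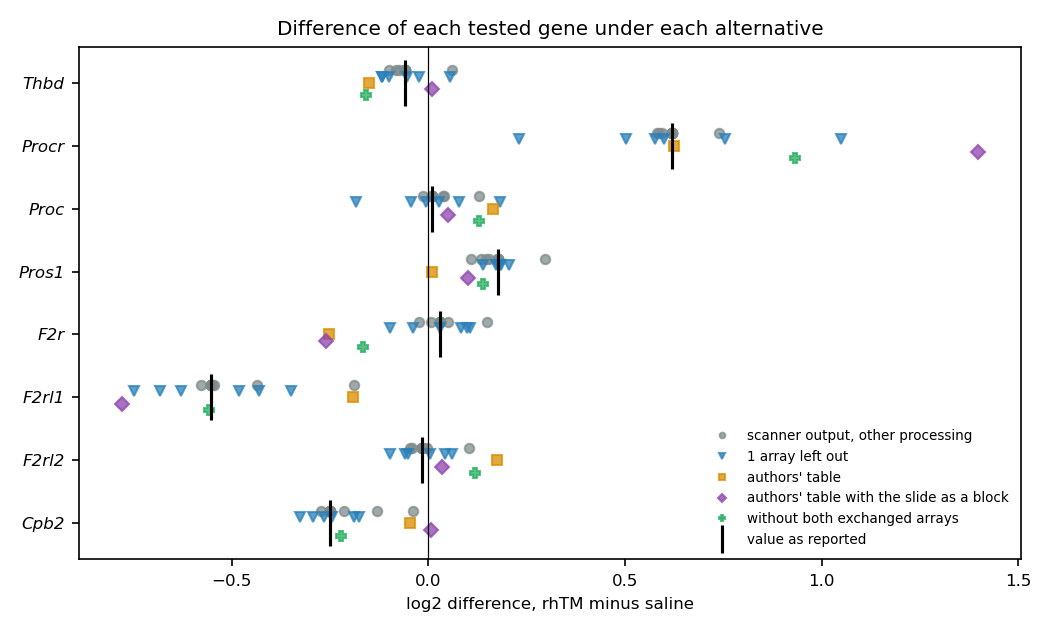
Difference between the group means of each tested gene (horizontal axis: log2, rhTM minus saline) as reported (black bar) and in 19 alternative analyses (symbols by kind). Procr and Pros1 lie above 0 and F2rl1 below 0 throughout, while Thbd, Proc, F2r and F2rl2 fall on both sides. The second probe of Pros1, at -0.19 under the exchanged assignment, is not drawn on its own.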

How the data were processed

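Total RNA from the lungs of 3 saline-treated and 3 rhTM-treated mice was labelled with Cy3 and hybridised to 1-colour Agilent SurePrint G3 Mouse arrays. Per array, the authors deposited Feature Extraction output whose processed signals are linear intensity values with background subtracted (Feature Extraction 10.7.3.1 per the file headers, 9.1 per the labels), and a table of the same intensity values averaged per probe and not scaled. Each column of that table held the values of 1 array within 0.1% for at least 99.9% of probes, but the columns of saline replicate 1 and rhTM replicate 2 were exchanged. The assignment of the scanner files was followed.

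Control spots were removed, as were 398 of 56605 probes that had no spot free of outlier flags on 1 or more arrays. Log2 signals were scaled to the 75th percentile of each array. Accessions of 32803 probes were matched to 22815 genes of a RefSeq table of assembly GRCm38.p6, which was used for names and neighbours only, since the design was annotated on another build. A probe was kept when either group had it well above background on each of its 3 arrays, and the brightest probe stood for its gene. Groups were compared with limma 3.58.1 in R 4.3.3, with p-values adjusted over all genes by the Benjamini-Hochberg method and called under 0.05, after testing on simulated data; an exact permutation test over arrays was added for single genes. The study's methods name a t-test, with a fold change of 2 or 0.5 and p under 0.01; at those thresholds the t-test gave 1 gene higher and 0 lower, limma 3 and 3, and limma under the exchanged assignment 52 and 13, none of them among the genes described.

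The genes, lists and markers were chosen with earlier results of these data known. The genes set to be named were all members, 11 genes of the pathway lists, the highest and lowest gene of each list, and the 3 genes nearest in pattern to Thbd, Procr and F2r. Of the pathway lists, Rgs2, Arhgef1, Arhgef12, Grk5, Elane, Plg and Gp9 were named outside this choice, with their values known. Alternatives were normexp background correction with an offset of 50, quantile normalisation, another percentile, the authors' table, slide and replicate blocks, probe means, other filters, leaving out arrays and the t-test; scaling on endothelial markers was added after seeing the data. Replicate numbers did not pair the mice: deviations of same-numbered arrays from their group means correlated at -0.30, 0.44 and -0.45 over 16369 genes.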

Additional observations from a re-analysis of the deposited data

How the results depend on the processing

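In 19 alternatives none of the 8 tested genes was called, and of the listed pathway genes only F3 and Serpind1 were, under the exchanged assignment with a term for the slide. That analysis called 432 genes (187 higher and 245 lower), the analysis without both exchanged arrays called 1 (Oxgr1), and leaving out 1 array called between 0 and 3 genes, with 3 without saline replicate 1 (Idi2, Oxgr1 and Tktl2) and 2 without rhTM replicate 1 (Gm10790 and Vmn1r211). The others called 0. Unadjusted p under 0.05 was reached by Procr and F2rl1 under the exchanged assignment with a term for the slide (28.1% of all genes) and without rhTM replicate 2 (8.54%), by F2rl1 without saline replicate 3 (2.10%), by Cpb2 without rhTM replicate 1 (1.80%), by Procr without both exchanged arrays (7.70%) and by Pros1 in the methods' test (2.08%).

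Signs turned as follows, and the cause was not tested. Under the exchanged assignment, F2r was at -0.25 and F2rl2 at 0.17. With a term for the slide as well, Thbd was at 0.0097, F2r at -0.26, F2rl2 at 0.036 and Cpb2 at 0.0061. Without both exchanged arrays, F2r was at -0.17 and F2rl2 at 0.12. Quantile normalisation put F2r at -0.024, and a percentile taken over detected probes only put Proc at -0.015. Scaling on endothelial markers, which moved the median of all genes to 0.12, put Thbd at 0.059 and F2rl2 at 0.10, both below that median. Leaving out 1 array gave Thbd from -0.12 to 0.055, Proc from -0.18 to 0.18, F2r from -0.098 to 0.10 and F2rl2 from -0.097 to 0.060; Procr stayed between 0.23 and 1.05, Pros1 between 0.14 and 0.21, F2rl1 between -0.75 and -0.35 and Cpb2 between -0.33 and -0.18. With a replicate block no gene was called (377 at an unadjusted p under 0.05), and in this balanced comparison the block cannot move a difference (Procr 0.62). The dim probes of Proc, F2rl1, F2rl2 and Cpb2 limit what these arrays can show, and F2rl3 was well above background on 1 array only.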

Other observations

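Elane, which encodes neutrophil elastase, a protease that can cut PARs and thrombomodulin, is given here for its large difference under the exchanged assignment, after its values were seen. Its level was 4.39 on saline replicate 1 and 4.29 on rhTM replicate 3, and between 0.47 and 0.79 on the other 4 arrays. The 2 high arrays were those of slide 2, 1 in each group. The difference was -0.047 from the scanner output and 2.54 under the exchanged assignment (limma adjusted p = 0.337), which places both high arrays in the rhTM group, while rhTM replicate 1 stayed within the saline range. Its part in the levels of the receptors was not tested.

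All 5 markers of mesothelium, the cell layer on the lung surface, had a lower mean in rhTM lungs, with a median difference of -0.61 (-0.66 under the exchanged assignment). Their summed signal was 32.9 to 50.8 times the 75th percentile in saline lungs and 22.8 to 36.6 times in rhTM lungs, and 0 of 5 were called by limma under either assignment. Groups did not overlap for 4 of the 5 under the exchanged assignment, where 12% of all genes were lower in this way, and for 0 of 5 in the scanner output, where 2.57% were.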
